A study of Mus musculus with 23 samples.

Results

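The pools compared here are libraries of 10 sorted type 1 conventional dendritic cells (cDC1) that held many or almost no transcripts of Ccr7 and Fscn1, a pair of genes that mark mature dendritic cells. The raw counts of both genes were added in each of the 23 libraries. A sum of 20 or more made a pool high, and a sum of 5 or fewer made it low. By this rule 13 pools were high, 7 were low and 3 lay between them and were left out of the main comparison, so 20 of the 23 libraries were compared. The classes were thus selected on measured counts of these genes in the same libraries, and the levels of Ccr7 and Fscn1 are given below as a description only.

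The cells came from melanomas grown under the skin of C57BL/6 mice of the wild type, after injection of a melanoma line with BRAFV600E. Control tumours were made by control cells of the line, and PGE2-deficient tumours by Ptgs1/Ptgs2 KO cells, which lack both cyclooxygenases; host cells kept both genes, and no prostaglandin level is part of these data. On day 6, live leukocytes (CD45+) positive for MHC-II, CD11c and CD103 and negative for CD11b were sorted in pools of 10 cells, up to 3 pools per mouse and 4 mice per tumour group. Sequencing libraries were prepared with Smart-seq3, which reads whole transcripts from a handful of cells. Of the high pools 4 came from control and 9 from PGE2-deficient tumours; of the low pools 5 came from control and 2 from PGE2-deficient tumours, and all 3 middle pools were from control tumours. High pools came from 7 mice and low pools from 5, and 4 mice gave both. The labels call pools of a mouse technical replicates, so pools that share a mouse are not independent animals. In a pool, more mature cells and more transcripts per mature cell cannot be told apart.

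Dendritic cells change state when they sense microbial products, dying cells or inflammatory signals. In this change, called maturation, they raise the chemokine receptor CCR7, which guides them to lymph nodes, and the actin-bundling protein fascin (Fscn1), which supports their long processes. They also raise ligands that stimulate or restrain T cells, and some secrete interleukin-12 and chemokines. NF-kB, reached through receptor-proximal and CD40-type signals, is a main driver of this programme, and cDC1 in tumours are known for carrying antigen to CD8 T cells.

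Total counts were 34088 to 78019 per high pool (median 49506) and 25571 to 98554 per low pool (median 51515). High pools detected 5506 to 8030 genes and low pools 4631 to 8868. Mitochondrial transcripts made up 2.66% to 5.76% of the counts in high pools and 3.54% to 5.92% in low pools. Depth therefore overlapped between the classes, and scaling the sums to the median total moved 0 pools across a threshold. The table lists 38 of 40 genes of cDC1 identity and uptake, and each of the 38 had counts in both classes. Their summed level was 18839 to 32520 CPM in high pools and 17656 to 28513 in low pools, where CPM, the unit of all levels here, are counts scaled to a common library total. Xcr1, the chemokine receptor that defines the subset, had counts in 11 of 13 high and 6 of 7 low pools, and the antigen receptor gene Clec9a had them in all of both. By tumour group, Xcr1 had counts in 2 of 4 control and 9 of 9 PGE2-deficient high pools. Among low pools it had them in 4 of 5 control and 2 of 2 PGE2-deficient pools. Markers of the labelled cell type were thus present on either side, though Xcr1 was missing from some control pools. Some pools also held markers of other cells, as given further on.

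In the high pools the sum of Ccr7 and Fscn1 ran from 25 to 72 counts with a median of 39. Ccr7 alone had 3 to 52 counts and Fscn1 4 to 36. In the low pools the sums were 0 to 3 counts, and 4 of 7 had 0 of either gene. The pool nearest above the upper threshold held 25 counts, and the pool nearest below it 16. Across the lower threshold the nearest pools held 3 and 6 counts. Both genes did not always go together. Pool 2 of PGE2-deficient mouse 2 had 3 counts of Ccr7 and 33 of Fscn1, whereas pool 1 of PGE2-deficient mouse 3 had 52 and 8. Mice were not of one class, since control mouse 3 gave 1 high pool with 42 counts and 2 low pools with 0.

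**Figure D1:**
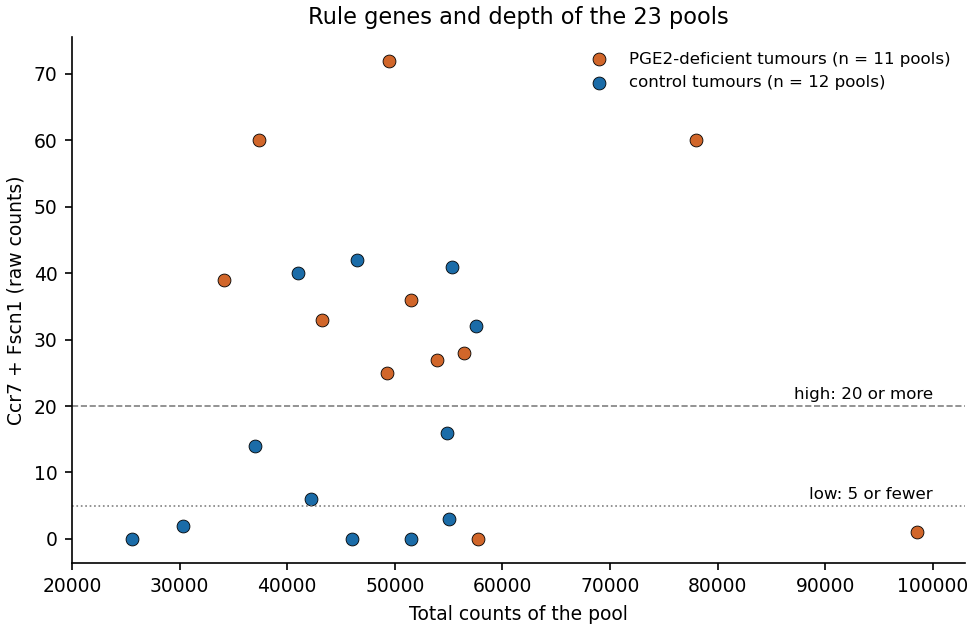
Sum of the raw counts of Ccr7 and Fscn1 (vertical axis) against the total counts of each of the 23 pools (horizontal axis), coloured by tumour group, with dashed and dotted lines at the thresholds of 20 and 5 counts. High and low pools occur over overlapping ranges of totals, and 3 control pools with sums of 6, 14 and 16 lie between the lines.

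Between high and low pools, 43 genes rose and 1 fell with Ccr7 and Fscn1, both of which were left out of the tested genes. The rising genes included those of a cytokine subunit (Il12b), chemokines (Ccl5, Cxcl9), ligands of inhibitory receptors (Cd274, Cd200), granzyme-inhibiting and related serpins (Serpinb9, Serpinb6b) and survival proteins of the BCL2 family (Bcl2a1a, Bcl2a1b, Bcl2a1d). Tiam1 was the gene that fell. The test was the quasi-likelihood F-test of edgeR over 4406 genes with tumour group as covariate, and a gene was called at a Benjamini-Hochberg adjusted p under 0.05. Higher calls made up 0.976% and lower calls 0.0227% of the tested genes. The log2 fold changes of the 43 ran from 0.59 to 6.62 with a median of 2.56. Without adjustment, 226 genes were higher and 111 lower at a p under 0.05. With each mouse as a block in place of tumour group, which compares pools within the 4 mice that gave both classes, 22 genes were higher and 0 lower, and 20 of the 44 calls were kept. Because the classes were defined in the same libraries, a call says only that a gene followed Ccr7 and Fscn1 from pool to pool.

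**Figure D2:**
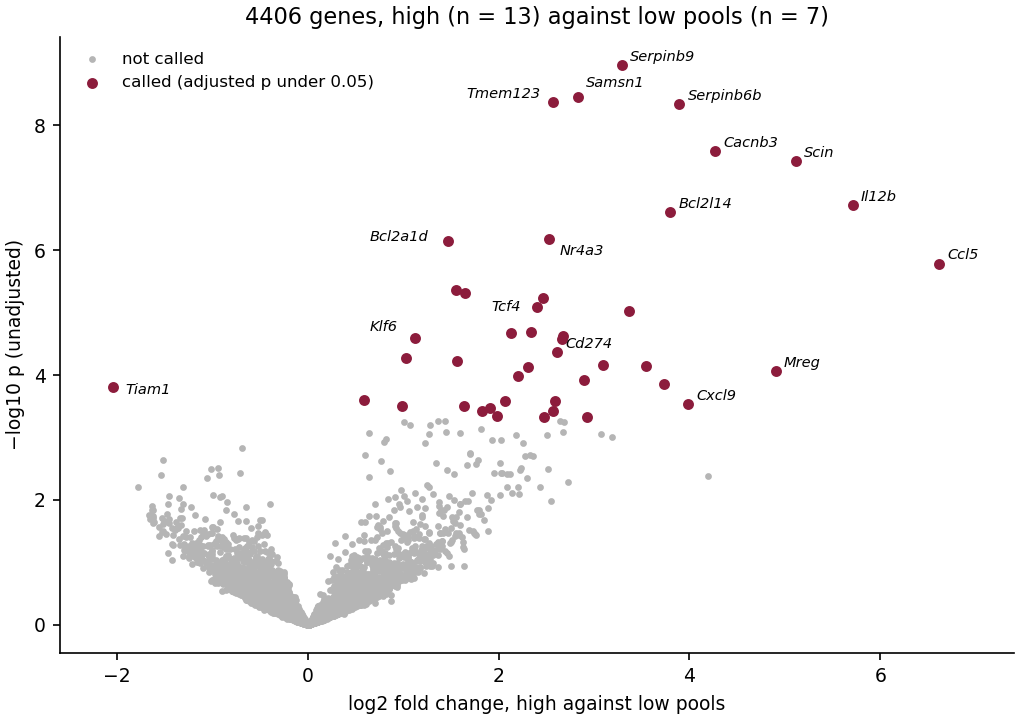
Log2 fold change of each of the 4406 tested genes, high (n = 13) against low pools (n = 7), on the horizontal axis, and −log10 of the unadjusted p on the vertical axis, with called genes in dark red. All but 1 of the 44 called genes lie on the right, and Tiam1 lies alone on the left.

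In 6 genes, 0.136% of those tested, every high pool exceeded every low pool in CPM. These were Serpinb9, Samsn1, Cacnb3, Scin, Bcl2l14 and Arhgap31. Serpinb9 encodes an inhibitor of granzyme B that protects dendritic cells from killer-cell granules. Its level was 0 to 67.1 CPM (median 35.9) in the low pools and 134 to 965 CPM (median 282) in the high pools. The log2 fold change was 3.29 ± 0.45 (SE) with an edgeR adjusted p of 4.70e-06, and all 13 high pools stood above the low ones. Samsn1, an adaptor protein with SAM and SH3 domains, had 0 to 95 CPM (median 67.1) in low pools and 108 to 936 CPM (median 410.5) in high pools (2.83 ± 0.40, adjusted p = 4.97e-06 by edgeR). Cacnb3, a beta subunit of voltage-gated calcium channels, held 2 counts over the 7 low pools and 117 over the 13 high pools, where it ran from 94.1 to 497 CPM (median 112). The ratio of pooled levels was 32.6 (exact 95% counting interval 8.82 to 272), an interval that covers counting error and not the spread between pools. Such ratios, here and below, pool both tumour groups without the covariate, so they mix class with tumour group. Scin encodes scinderin, which severs actin filaments in a calcium-dependent way. It had 1 count in the low pools and 84 in the high pools (17.8 to 786 CPM (median 72.2); ratio 46.8 (exact 95% counting interval 8.17 to 1869)). Scin varied widely within the high class, with 28 and 15 counts in control pools 2.3 and 4.1 and 1 count in 3 others, here named by mouse and pool number. The low pool with 1 count (16.8 CPM) thus tied with those 3 in raw counts, and scaling alone set them apart. Bcl2l14, a BCL2 family member, had 3 counts in low and 122 in high pools (ratio 22.6 (exact 95% counting interval 7.57 to 111)). Its highest low pool (33.7 CPM) and its lowest high pool (44.6 CPM) held 2 counts each. Arhgap31, a GTPase-activating protein for Rac and Cdc42, went from 0 to 23.7 CPM (median 16.8) to 35.5 to 322 CPM (median 76.5), but it lost its call under the mouse block (adjusted p = 0.233) and in 7 of the 8 fits without a mouse.

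Genes that accompany Ccr7 and Fscn1 in mature dendritic cells of many tissues were gathered in a list of 41 besides these. Of them 36 were in the table and 30 had enough counts to be tested. Of the 30, 13 rose and none fell, and 30 had a positive fold change, with a median log2 fold change of 2.38. Over all tested genes 2160 of 4406 were positive and the median was −0.0095. As 13 of the 20 pools were high, a gene with counts mainly in high pools passed the count filter more easily, so these counts describe the list and do not support it. The same holds for the lists given below. The called members were Cacnb3, Bcl2l14, Tmem123, Tbc1d4, Serpinb6b, Serpinb9, Samsn1, Marcksl1, Cd63, Gadd45b, Nr4a3, Strip2 and Mreg. Of these 13, 9 were also called under the mouse block, which did not call Cd63, Gadd45b (adjusted p = 0.35), Strip2 (0.228) or Mreg. The block called 2 further members, Ccl22 and the fatty acid binding protein gene Fabp5. Strip2 missed the threshold in 7 of 8 fits without a mouse, and Gadd45b, a stress-response gene, in 5 of 8.

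Serpinb6b, a serpin of the same clade as Serpinb9, had 0 to 235 CPM (median 0) in low and 161 to 1013 CPM (median 364) in high pools (3.89 ± 0.56, edgeR adjusted p = 4.97e-06). The classes overlapped through 1 low pool, pool 3 of control mouse 1, which held 235 CPM while the next low pool held 16.8. Both are protein-coding genes on chromosome 13 (GRCm38, plus strand), with Serpinb6b at 32965209 to 32979067 and Serpinb9 at 33003250 to 33017957. Tmem123, which encodes a transmembrane protein, rose from 20.2 to 152 CPM (median 67.1) to 134 to 726 CPM (median 480.5) (2.57 ± 0.37, edgeR adjusted p = 4.97e-06), with 12 of 13 high pools above every low pool. Marcksl1, an actin-regulating relative of MARCKS, held 3 counts in the low pools, all in the same pool 3 of control mouse 1, and 79 in the high pools, each of which had at least 3 (ratio 14.7 (exact 95% counting interval 4.84 to 72.6)). Tbc1d4, a Rab GTPase-activating protein, rose by 1.64 ± 0.32 (adjusted p = 0.00166), and Nr4a3, a nuclear receptor linked to dendritic cell migration, by 2.52 ± 0.45 (adjusted p = 3.10e-04). Mreg was not counted in any low pool and had 47 counts in 10 of the 13 high pools. Against a floor of 3 counts over the 7 low pools, and with both tumour groups pooled, it was at least 8.72-fold higher. The call of Mreg was lost under the mouse block (edgeR adjusted p = 0.0723). Cd63, a tetraspanin of late endosomes, had counts in 1 low pool and in 12 high pools (3.54 ± 0.82, adjusted p = 0.012; 0.0824 under the block).

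Socs2, an inhibitor of cytokine signalling in this list, narrowly missed the threshold. It ran from 0 to 23.7 CPM (median 0) in low to 16.9 to 210.2 CPM (median 53.3) in high pools, with 12 of 13 high pools above every low pool (2.69 ± 0.73, edgeR adjusted p = 0.0515). Relb, an NF-kB subunit of the non-canonical pathway, had a difference of 1.93 ± 0.56 (adjusted p = 0.0763). Ccl22, a chemokine for CCR4-bearing T cells, had 148 counts in 12 high pools, and its 9 counts in the low class were all in pool 3 of control mouse 1. It was not called (2.43 ± 0.86, adjusted p = 0.254), whereas the fit within mice called it (4.92, adjusted p = 0.0339). Il4i1, fixed for naming, is not analysed here.

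Among 12 tested cytokine and chemokine genes, 3 rose, none fell and 9 were not called, with a median log2 fold change of 1.81. Over all 4406 tested genes 43 rose (0.976%) and the median was −0.0095. Il12b, the p40 chain shared by interleukin-12 and interleukin-23, had 1 count over the 7 low pools and 227 over the high pools (ratio 126 (exact 95% counting interval 22.5 to 5014)). Its log2 fold change was 5.71 ± 0.96 with an adjusted p of 1.18e-04 by edgeR. High pools differed greatly. Control high pools held 10, 0, 16 and 0 counts of Il12b, and PGE2-deficient high pools 30, 48, 45, 36, 1, 13, 4, 11 and 13. So 11 of 13 high pools had the transcript, and 10 exceeded every low pool. Il12b is found on chromosome 11 at 44400063 to 44414033 (GRCm38, plus strand).

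Ccl5, a chemokine that attracts T cells, had 2 counts in the low pools and 847 in the high pools (ratio 236 (exact 95% counting interval 65.1 to 1950.2); log2 fold change 6.62 ± 1.23, edgeR adjusted p = 6.54e-04). In the order used for Il12b, control high pools held 1, 2, 0 and 5 counts and PGE2-deficient high pools 8, 1, 80, 182, 229, 1, 274, 25 and 39. All counts over 5 thus lay in pools of PGE2-deficient tumours, so the pooled ratio mixes class with tumour group. Too few counts were present in control pools to test Ccl5 there. Within PGE2-deficient tumours the difference rested on 2 low pools with 1 count between them (log2 fold change 7.82, adjusted p = 0.117). High Ccl5 and high Il12b did not coincide in every pool. Pool 3 of PGE2-deficient mouse 2 had 229 counts of Ccl5 and 1 of Il12b, and pool 2 of PGE2-deficient mouse 1 had 1 and 48. Neither Ccl5 nor Il12b was called without the 4 libraries that held T cell markers, with robust dispersion or with limma-voom, and Ccl5 was also not called without PGE2-deficient mouse 4. The log2 fold change of Il12b was 3.96 without those libraries, 5.71 with robust dispersion and 3.41 with limma-voom, and that of Ccl5 was 2.31, 6.62 and 3.67. Leaving out the libraries with T cell markers removed both low pools of PGE2-deficient tumours, so the class difference then came from control pools only. Over all alternatives Ccl5 ran from 0.93 to 7.82. Ccl5 is also expressed by T cells, whose markers are given further on. Cxcl9, a chemokine induced by interferon gamma, had 1 count in low and 52 in high pools, in 7 of the 13 (ratio 29 (exact 95% counting interval 4.97 to 1165); adjusted p = 0.0359). It kept its call in 2 of 8 fits without a mouse and lost it under the block (adjusted p = 0.518). The gene of interleukin-1 beta, Il1b, had 568.3 to 1893 CPM (median 1178) in low and 104 to 2166 CPM (median 649.9) in high pools and was not called (0.0022 ± 0.30, adjusted p = 1). By tumour group its medians were 1443 CPM in low and 1709.8 CPM in high control pools, and 705 and 417 CPM in PGE2-deficient pools.

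**Figure D3:**
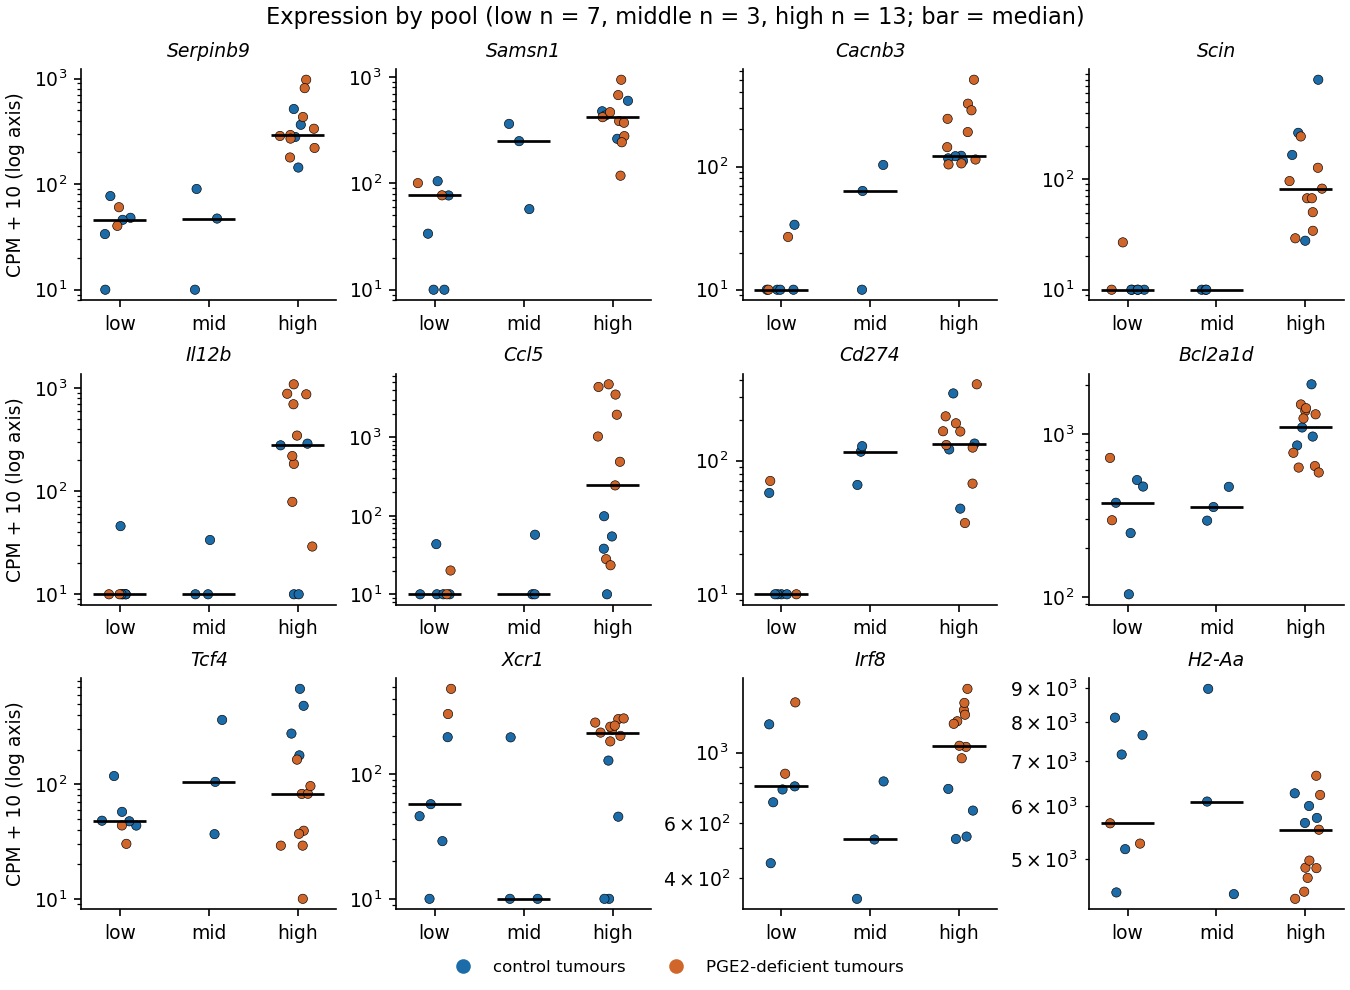
Levels of 12 genes in each pool (CPM plus 10, log axis) by class, with low (n = 7), middle (n = 3) and high pools (n = 13), coloured by tumour group; the bar is the class median. Serpinb9, Samsn1 and Cacnb3 separate high from low pools, and Scin does so in CPM only, with pools of 1 raw count in both classes. Ccl5 and Il12b spread over orders of magnitude within the high class, and Xcr1, Irf8 and H2-Aa overlap between classes.

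Of 12 tested genes for costimulation and checkpoints, 2 rose and none fell, with a median of 0.56. Both were ligands of inhibitory receptors. Over all 4406 tested genes 43 rose and the median was −0.0095. Cd274, which encodes PD-L1, was 0 to 60.5 CPM (median 0) in low pools and 24.1 to 363 CPM (median 124) in high pools. All 13 high pools had counts against 2 of 7 low pools, and 10 exceeded every low pool (2.61 ± 0.59, edgeR adjusted p = 0.00865). Without control mouse 2, control mouse 3 or PGE2-deficient mouse 4 Cd274 was not called, with values from 2.24 to 3.85 over the fits without a mouse. Cd200, whose receptor dampens myeloid cells, had 6 counts in 3 low pools and 92 counts in all 13 high pools (2.89 ± 0.70, adjusted p = 0.0173). Cd200 kept its call in 4 of 8 fits without a mouse. Cd86, a costimulatory ligand of T cells, was not called. It went from 0 to 202 CPM (median 169) to 52 to 444 CPM (median 229) (0.70 ± 0.34, adjusted p = 0.624), and Cd83, a surface marker of maturation that is in the maturation list, from 237 to 1049.5 CPM (median 454) to 497 to 1350.5 CPM (median 860.4) (0.76 ± 0.24, adjusted p = 0.134). Cd40, the receptor through which helper T cells license dendritic cells, had counts in 3 low and 8 high pools (1.76 ± 0.82, adjusted p = 0.586).

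Of the NF-kB pathway 22 of 28 genes were tested, 4 rose, none fell and 20 had a positive fold change, with a median of 1.26. The called genes were Bcl2a1a, Bcl2a1b, Bcl2a1d and Map3k14. Over all 4406 tested genes 43 rose, 2160 were positive and the median was −0.0095. The count filter favoured genes with counts mainly in high pools here too, so these numbers only describe the list. The Bcl2a1 genes encode near-identical anti-apoptotic proteins, so reads may be split among them and they are not separate evidence. Bcl2a1d rose from 93.7 to 706 CPM (median 369) to 572 to 2021 CPM (median 1092) (1.47 ± 0.26, edgeR adjusted p = 3.10e-04), and 10 of 13 high pools exceeded every low pool. Bcl2a1b rose by 1.55 ± 0.30 (adjusted p = 0.00159) and Bcl2a1a by 1.57 ± 0.36 (adjusted p = 0.0108; 0.0639 under the block). Map3k14, the NF-kB-inducing kinase of the non-canonical pathway, went from 0 to 71.9 CPM (median 23.7) to 26 to 281 CPM (median 111) (1.91 ± 0.50, adjusted p = 0.0376; 0.314 under the block), and kept its call in 2 of 8 fits without a mouse. Traf1, an adaptor of TNF receptors, was close to the threshold (1.27 ± 0.36, adjusted p = 0.0676), and Nfkb2 was not (0.83 ± 0.58, adjusted p = 0.844). Malt1, a protease upstream of NF-kB, was called outside the list (2.47 ± 0.49, adjusted p = 0.00182; 0.15 under the block). Of 14 tested apoptosis and survival genes, Bcl2a1b and Bcl2a1d were the 2 called, and the median was 0.15.

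Promoters of the called genes were searched for the NF-kB consensus motif on both strands, from 250 bases before to 50 after the start site in RefSeq (GRCm38.p6). Of the 43 higher genes 36 had a promoter entry, and 3 of them (8.33%) held the motif. It was found in 9.55% of all 27025 genes with an entry and in 12.9% of the tested genes that had one. The share among called genes was thus no higher than among all genes. The 3 promoters are shown because they hold the only matches among the higher genes, in lower case from 5′ to 3′ on the gene's strand, with the motif in capitals. They are those of Tmem39a at chr16:38562564-38562863 on the plus strand, Mmp25 at chr17:23645220-23645519 on the minus strand and AW112010 at chr19:11050517-11050816 on the minus strand.
Tmem39a: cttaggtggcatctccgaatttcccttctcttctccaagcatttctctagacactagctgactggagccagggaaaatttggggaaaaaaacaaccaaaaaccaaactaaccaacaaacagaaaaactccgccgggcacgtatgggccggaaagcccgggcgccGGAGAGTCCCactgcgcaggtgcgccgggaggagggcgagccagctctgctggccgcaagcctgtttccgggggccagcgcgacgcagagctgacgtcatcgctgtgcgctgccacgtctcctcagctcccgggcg
Mmp25: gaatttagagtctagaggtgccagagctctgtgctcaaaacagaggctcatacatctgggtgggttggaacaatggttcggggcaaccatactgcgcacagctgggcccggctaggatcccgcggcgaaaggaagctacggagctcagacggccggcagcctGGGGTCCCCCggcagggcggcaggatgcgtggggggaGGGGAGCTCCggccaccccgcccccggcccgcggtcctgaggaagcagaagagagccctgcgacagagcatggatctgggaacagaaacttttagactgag
AW112010: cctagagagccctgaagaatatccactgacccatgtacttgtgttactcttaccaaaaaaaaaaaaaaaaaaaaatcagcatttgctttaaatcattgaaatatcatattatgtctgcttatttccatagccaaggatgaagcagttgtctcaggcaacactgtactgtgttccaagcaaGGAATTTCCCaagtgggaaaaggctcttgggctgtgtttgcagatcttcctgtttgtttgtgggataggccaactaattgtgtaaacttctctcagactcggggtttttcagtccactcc
AW112010, an interferon-inducible transcript, rose from 37.5 to 331 CPM (median 101) to 0 to 1965 CPM (median 555) (2.13 ± 0.46, edgeR adjusted p = 0.00517; 0.0502 under the block). Mmp25, a membrane-anchored matrix metalloproteinase, had 3 counts in the low and 50 in the high pools, where each pool had some (ratio 9.28 (exact 95% counting interval 3 to 46.5); adjusted p = 0.012, 0.187 under the block). Tmem39a had 5 counts in 3 low pools and 77 in 12 high pools (adjusted p = 0.0326, 0.782 under the block) and kept its call in 1 of 8 fits without a mouse.

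In the list of migration and cytoskeleton genes 31 were tested, Marcks and Marcksl1 rose, none fell, and the median was 0.13. Marcks, which links membranes to actin, went from 134 to 421 CPM (median 212) to 312 to 807 CPM (median 497) (0.99 ± 0.26, edgeR adjusted p = 0.0367; 0.263 under the block), and kept its call in 3 of 8 fits without a mouse. Tiam1, an exchange factor that activates Rac, fell from 0 to 370.3 CPM (median 111) in low to 0 to 104 CPM (median 38.2) in high pools (−2.05 ± 0.50, adjusted p = 0.0217). The classes overlapped, the highest value being that of low pool 2 of PGE2-deficient mouse 4 (370.3 CPM), and the call was lost under the block (adjusted p = 0.234), in 4 of 8 fits without a mouse, without the 4 libraries that held T cell markers and without the 2 that held C1q.

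Of the 43 higher genes 18 were in none of the lists. Of these 18, Scin and Ptafr were taken by the fixed rule on fold size, and the others named here were chosen after their values were seen. Bhlhe40 (2.34 ± 0.50, adjusted p = 0.00517), Klf6 (1.12 ± 0.24, adjusted p = 0.00555), Stat4, the transducer of interleukin-12 signals (2.20 ± 0.53, adjusted p = 0.0157), and the vitamin D receptor Vdr (2.93 ± 0.79, adjusted p = 0.047), each of which encodes a transcription factor, were called. Klf6 ran from 282 to 403 CPM (median 380.1) in low to 311 to 1279.7 CPM (median 759.6) in high pools, with 12 of 13 high pools above every low pool. Stat4 also passed under the mouse block (adjusted p = 0.0229) but kept its call in 4 of 8 fits without a mouse, and Bhlhe40 (0.0837), Klf6 (0.253) and Vdr (0.637) did not. Pfkfb3, an activator of glycolysis, was the 1 called gene of 12 tested in that list (2.68 ± 0.58, adjusted p = 0.00554; 0.112 under the block). Its 13 high pools all had counts against 4 of 7 low pools. Ly75, the antigen uptake receptor DEC-205, rose from 0 to 50.5 CPM (median 0) to 24.1 to 169 CPM (median 124) (2.31 ± 0.54, adjusted p = 0.012; 0.198 under the block). Ptafr, the receptor of platelet-activating factor, had 1 count in the low and 34 in the high pools (ratio 18.9 (exact 95% counting interval 3.18 to 769); 0.0953 under the block). Glipr2 rose by 2.66 ± 0.58 and Rps27l by 1.03 ± 0.23, and both passed under the block as well (adjusted p = 0.0239 and 0.0409). Rps27l is a close relative of a ribosomal protein gene, so its reads may be shared. Txndc17, Ktn1 and Zfp36l1, also called, had log2 fold changes of 1.63, 1.83 and 1.99, and each lost its call in at least 4 of 8 fits without a mouse and under the block (adjusted p = 0.253, 0.102 and 0.0572).

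The list of genes of cDC1 identity and antigen uptake gave no calls. The called uptake receptor gene Ly75, given above, was not in it. Of 35 tested none passed the test in either direction, 14 were positive and the median was −0.043. Irf8, which specifies cDC1, had 437 to 1431 CPM (median 772) in low and 523 to 1579.7 CPM (median 1041) in high pools (−0.13 ± 0.20, edgeR adjusted p = 0.956). Within control tumours its median was 755 CPM in low and 589 CPM in high pools, and within PGE2-deficient tumours 1139 and 1246 CPM. Batf3 (−0.053 ± 0.39), Itgae, which encodes CD103 (−0.12 ± 0.34), Clec9a (0.49 ± 0.36) and the protease inhibitor Cst3 (0.23 ± 0.13) had adjusted p-values from 0.734 to 1. Xcr1 ran from 0 to 471 CPM (median 47.4) in low to 0 to 269 CPM (median 205) in high pools (−0.66 ± 0.40, adjusted p = 0.768). The difference of the class medians of Xcr1 and its fitted value have opposite signs. Among high pools 17.8 CPM was the median of control pools and 229 that of PGE2-deficient pools. Ckb had the smallest p in this list (−1.02 ± 0.33, adjusted p = 0.164).

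Neither list of antigen presentation genes held a called gene. Of 15 MHC class II genes 4 were positive, with a median of −0.13. H2-Aa, a class II alpha chain, was 4456 to 8115 CPM (median 5648) in low and 4359 to 6648 CPM (median 5525) in high pools (−0.12 ± 0.15), and Cd74, the invariant chain, differed by −0.13 ± 0.15. The peptide-exchange factor gene H2-DMb1 had the smallest p (−0.71 ± 0.24, edgeR adjusted p = 0.178). MHC class I genes were positive in 18 of 24, with a median of 0.41. Psme2, an activator of the proteasome, went from 171 to 403 CPM (median 260.5) to 289 to 1528 CPM (median 641) and narrowly missed the threshold (1.01 ± 0.27, adjusted p = 0.0515). B2m, the light chain of class I molecules, had 1509 to 3792 CPM (median 2081) in low and 2799 to 9037 CPM (median 3616) in high pools (0.64 ± 0.18, adjusted p = 0.0669), and H2-K1 differed by 0.58 ± 0.27 (adjusted p = 0.586).

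None of 28 type I interferon genes was called, and their median was −0.088. Isg15, a ubiquitin-like modifier, ran from 0 to 269 CPM (median 38) in low to 0 to 802 CPM (median 242) in high pools (0.59 ± 0.50, edgeR adjusted p = 0.884). Ifitm1, another interferon-induced gene, had 303 to 10472 CPM (median 4815) in low and 0 to 8113 CPM (median 531) in high pools (−0.73 ± 0.31, adjusted p = 0.5). The tumour groups are mixed unequally in the classes. In control tumours its median was 5036 CPM in low and 6863 CPM in high pools (−0.066 in the control pools alone), and in PGE2-deficient tumours 1035 and 146 CPM. Of 13 interferon gamma genes Cxcl9 was the 1 called. Cell cycle genes were positive in 8 of 28 with a median of −0.32 and no call; Birc5 (−1.62 ± 0.64, adjusted p = 0.404) and Hmgb2 (−0.91 ± 0.33, adjusted p = 0.315) had the smallest p. Among 14 tested genes of the cyclic AMP and PGE2 response, Nr4a3 was the 1 called. No gene was called among 20 of lysosomes and endocytosis, 11 of cholesterol synthesis and efflux, 38 nuclear and 13 mitochondrial genes of the respiratory chain, 15 of the unfolded protein response and 21 of the stress of tissue dissociation. Medians of these lists ran from −0.47 for cholesterol to 0.25 for lysosomes. Of 84 cytosolic ribosomal protein genes Rps27l was the 1 called.

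**Figure D4:**
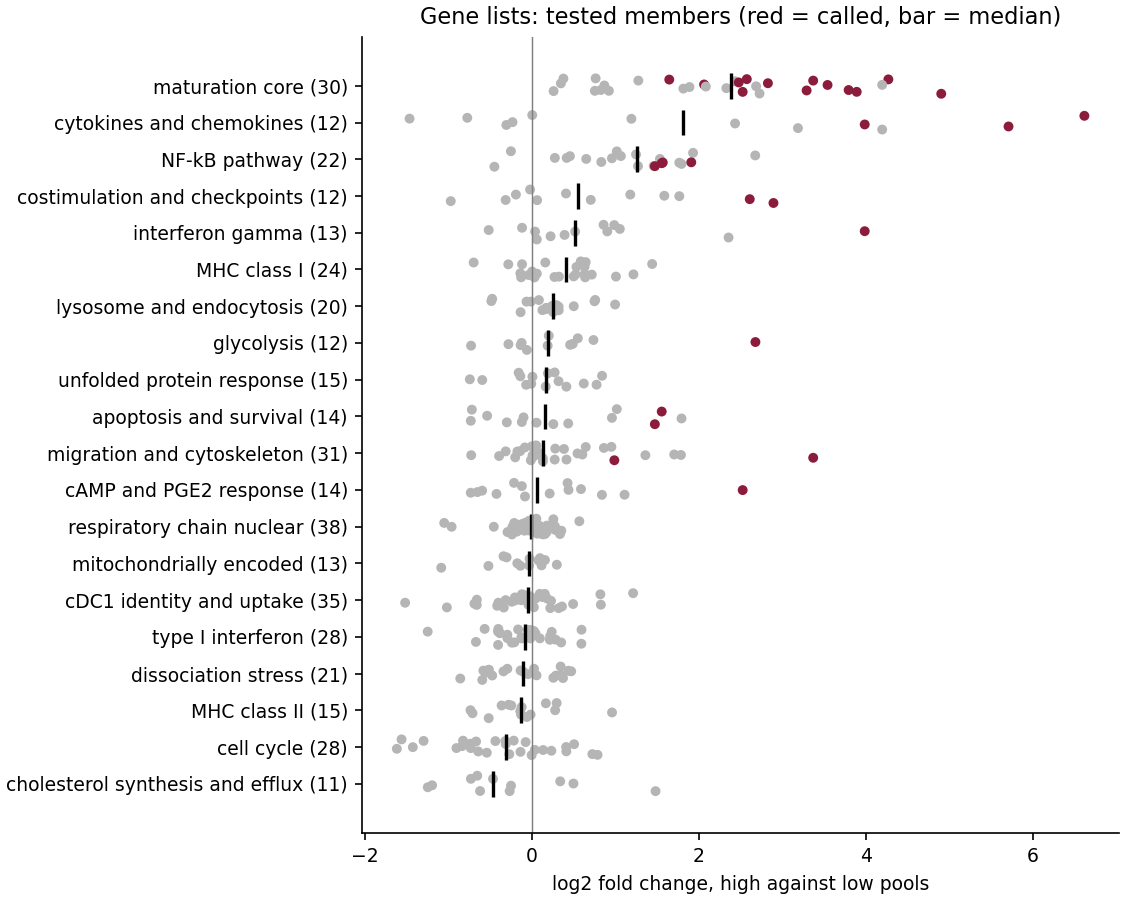
Log2 fold change, high against low pools, of each tested member (points) of the 20 lists with 10 or more tested genes, ordered by median (bar), with called genes in dark red and the number tested in brackets. The maturation list lies furthest right with a median of 2.38, and identity, MHC class II and type I interferon lists centre near 0.

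Markers of other cells were found in some pools and moved with the classes in part. Siglech, Klk1, Cox6a2 and Ccr9, markers of plasmacytoid dendritic cells (pDC), summed to 10 or more counts in 3 of 4 control high pools (29, 11 and 14 counts) and in 1 low pool (18 counts). In the 9 PGE2-deficient high pools they summed to 0 or 1. The whole pDC list, of which 11 of 12 genes are in the table, summed to 146 to 2607 CPM in high and 169 to 1006 CPM in low pools; Siglech, Klk1 and Cox6a2 were at 0 in all PGE2-deficient pools of both classes. Tcf4, which specifies pDC and is also found in other cells, was a called gene of the main comparison (2.41 ± 0.49, edgeR adjusted p = 0.00236). Its counts were 30, 28 and 15 in the 3 control high pools with pDC markers, 6 in the fourth control high pool, 0 to 8 in PGE2-deficient high pools and 1 to 3 in low pools. A middle pool, pool 1 of control mouse 2, held 19 counts of Tcf4 and 0 of the pDC markers. Tcf4 was not called without the 4 libraries that held pDC markers (log2 fold change 1.42, adjusted p = 0.718) or under the mouse block (adjusted p = 0.155). Without the 4 libraries 21 genes were higher and 1 lower, and 20 of the 42 tested calls were kept. Only 1 control high pool was left in that smaller set of pools. Nr4a3, Malt1, Pfkfb3, Bhlhe40, Klf6, Stat4, Ly75 and Mreg were among the calls lost there. Their log2 fold changes there were 2.24, 2.41, 2.68, 2.28, 1.17, 2.52, 1.68 and 4.59, against 2.52, 2.47, 2.68, 2.34, 1.12, 2.20, 2.31 and 4.90 over all 20 pools.

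T cell receptor and CD3 genes reached 10 or more counts in 3 low pools (11, 13 and 29 counts), among them both low pools of PGE2-deficient tumours, and in 1 high pool (14 counts). The T and NK cell list, with 15 of 20 genes in the table, summed to 104 to 673 CPM in high and 95.0 to 673 CPM in low pools, and Cd4 and Thy1 were at 0 in both. Without these 4 libraries no low pool of PGE2-deficient tumours was left, so the class difference came from control pools only. In that fit 11 genes were higher and 0 lower, all among the 44. They were Bcl2a1d, Cacnb3, Cd274, Ly75, Nr4a3, Samsn1, Scin, Serpinb9, Tbc1d4, Tcf4 and Tmem123. Complement C1q genes, expressed by macrophages, reached 10 or more counts in 1 high (55) and 1 low pool (37), and without them 42 genes were higher and 0 lower. The macrophage and monocyte list, with 16 of 18 genes in the table, summed to 337 to 5571 CPM in high and 639 to 3630 in low pools, with only Fcgr1 at 0 among low pools. The cDC2 list (11 of 12 genes) summed to 29.3 to 1097 CPM in high and 135 to 758 in low pools, with Clec4a4 at 0 in both. Leaving out all 9 libraries with any of the pDC, T cell or C1q sets kept 9 high and 2 low pools. Both low pools and 1 of the high pools were from control tumours, and no low pool of PGE2-deficient tumours was left. With tumour group in the fit, the class difference thus rested on 1 control high pool, and its calls are not given. Of the 40 tested calls, 39 kept their direction there. B cell (3 of 10 genes in the table), neutrophil and mast cell (2 of 12) and melanoma and stroma markers (4 of 17) each summed to at most 247 CPM in any pool. All of these fits were chosen with the data in view, and each of them also lost pools of the comparison. The part of other cells in the differences was not tested.

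The comparison was repeated within each tumour group, in sets that share no pool. Of the control pools, 3 high and 1 low held pDC markers. In control tumours (4 high and 5 low pools) 10 of 1957 genes rose and none fell, a share of 0.511%. They were Samsn1, Nr4a3, Malt1, Tbc1d4, Serpinb9, Tmem123, Tcf4, B2m, AW112010 and Bcl2a1d. Of the 9 that could also be tested in PGE2-deficient tumours all had the same direction, 7 of them at an unadjusted p under 0.05, with log2 fold changes from 0.45 to 3.39 and a median of 1.98. Of all genes tested there, 50.4% were positive and 4.18% were higher at that p. In PGE2-deficient tumours (9 high and 2 low pools, both low pools with T cell markers) 5 of 3013 genes rose, 0.166%, and none fell. These were Cacnb3, Il12b, Serpinb6b, Serpinb9 and Marcksl1. Serpinb9 and Serpinb6b were the 2 that could be tested in control tumours, and both were higher there at an unadjusted p under 0.05 (3.24 and 3.17 against 3.39 and 5.14). Serpinb9 was called in both groups. The maturation list had a median of 2.39 over 13 genes in control and 2.36 over 27 genes in PGE2-deficient tumours. Over all genes tested in each group the medians were 0.00016 and 0.0046. With 9 high and 2 low PGE2-deficient pools, genes with counts mainly in high pools passed the count filter more easily there. The 2 list medians also cover different genes, so they are a description only.

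Whether the difference between classes itself depended on tumour group was tested by an interaction term. No gene of 4406 passed (edgeR quasi-likelihood test); 160 had an unadjusted p under 0.05, and DESeq2 gave 0 and 117. Ccl22 had one of the larger interaction terms (6.54, unadjusted p = 0.00376, adjusted p = 1); its 9 low-pool counts lay in 1 control pool. Ifitm1 had −0.066 in control and −1.80 in PGE2-deficient tumours (interaction −1.78, unadjusted p = 0.00564, adjusted p = 1). With 2 low pools in one group the precision of these terms is low. Across the 1891 genes tested in both groups the fold changes correlated with a Pearson r of 0.31, given as a description since genes are not independent replicates.

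**Figure D5:**
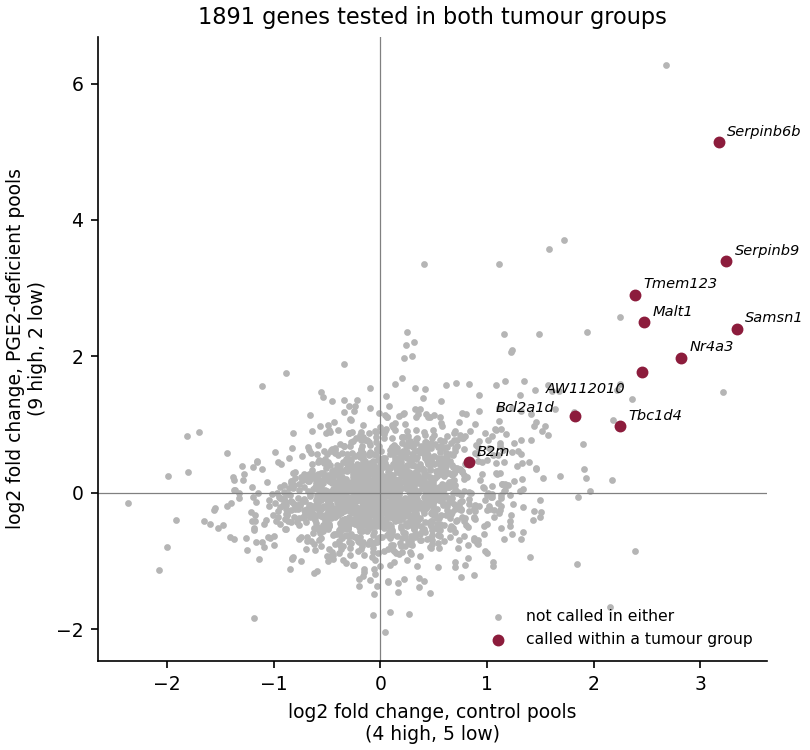
Log2 fold change, high against low pools, in control tumours (horizontal axis; 4 high and 5 low pools) and in PGE2-deficient tumours (vertical axis; 9 high and 2 low pools) for the 1891 genes tested in both. The genes called within either group (dark red) all lie in the upper right quadrant, with Serpinb9 at 3.24 and 3.39.

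High pools were not alike. Of the 43 higher genes, 39 to 43 were detected per high pool (median 41), 19 to 31 per low pool (median 27) and 33 or 34 in the middle pools, which took no part in the calls. Their summed level was 12907 to 29899 CPM in high pools, 5322 to 7955 in low pools and 7795 to 8356 in middle pools. Since these genes were called between the same high and low pools, that gap is a description. The middle pools were not used for the calls, but they are compared here with classes that were. The highest sum was in pool 3 of PGE2-deficient mouse 2, which also had the highest sum of the rule genes, 72 counts, and the lowest among high pools was in pool 1 of PGE2-deficient mouse 3, where the rule genes summed to 60. The middle pools' median lay between the medians of the low and high pools for 31 of the 43 genes, and below that of the high pools for 40. The low and high medians come from the pools in which these genes were called, and no such share was counted over all tested genes. All 3 middle pools were from control tumours, most high pools were not, and the medians are not adjusted for tumour group. Both counts are thus a description only, and whether middle pools are intermediate was not tested. Samsn1 was 47.4 to 354 CPM in middle pools with a median of 240.2. Serpinb9 was 0 to 80.1 CPM there with a median of 37.2, against 35.9 in low pools. Scin was at 0 in all 3 middle pools, whose totals were 36999 to 54832 counts.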

How the data were processed

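RNA of cDC1 pools was measured by Smart-seq3. The authors deposited whole-number counts per gene and library without normalization; per the submitters' processing notes reads were aligned with STAR 2.5.4b to GRCm38 (mm10). For the counter, the annotation and the use of molecular identifiers the status is: not given in the sources used here. Intervals and floors treat counts as independent events, which is not known to hold for these counts. They leave out the spread between pools. The ratios and floors also pool both tumour groups without the covariate of the fit. Of 13572 gene rows 261 had no count, and 16 symbols turned into dates were restored by identifier (GENCODE M21). Columns were matched to samples by their sample identifiers.

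Pools were classed by the raw counts of Ccr7 and Fscn1. Genes with at least 30 counts in all and a count in at least 5 of the 20 pools were tested, 4406 genes with 91.2% of the counts. The fit was edgeR 4.0.16 (TMM scaling, quasi-likelihood F-test, two-sided, prior count 0.125, terms for tumour group and class), with Benjamini-Hochberg adjustment over all tested genes at 0.05. The biological coefficient of variation was 36.7%. Standard errors were derived from the F statistic of each fold change. Pools of a mouse come from 1 animal, so the mouse was used as a block in an alternative fit. After the main fit residuals correlated by a median of −0.088 over 16 pairs from the same mouse and −0.036 over 174 other pairs. On data simulated with these depths and spread (4120 genes, 10 simulations) the recovered share was 15.1% for 2-fold and 67.6% for 4-fold changes, and 2.52% of calls were false. Small changes are therefore mostly not detectable here. The simulated pools were independent draws, without effects of tumour group, mouse or other cells. The share of false calls holds for such draws and was not measured for the real pools.

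The pools and the 27 gene lists were chosen with earlier results of these data known. Genes were named by rule: the 12 largest called fold changes of each direction, up to 4 called members per list (or 2 with the smallest p), and a fixed panel; some called genes were added. Alternatives changed scaling (DESeq2 1.42.0 size factors, upper quartile), count filter, test (DESeq2, limma 3.58.1 voom), class rule, covariates and pools. Software versions were R 4.3.3, Python 3.11.15 and matplotlib 3.10.9 (figures). One called gene is not reported here.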

Additional observations from a re-analysis of the deposited data

Results flagged for a closer look

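Each named gene was checked for a pool far from the others of its class (Dixon's test at the 95% level) in low pools and in the high pools of each tumour group. Of 206 such groups 34 had one; chance gives about 1 in 20, and many low pools are at or near 0 counts.

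Pool 3 of PGE2-deficient mouse 2, the pool with the highest sum of Ccr7 and Fscn1, stood above the other high pools of its tumour group in 9 genes. Its levels were 344 CPM for Cxcl9 (next pool 94.1), 573 for Cd200 (next 205), 478 for Ckb (next 260.2), 9037 for B2m (next 5093) and 1738 for H2-K1 (next 1076). It further held 1280.0 CPM of AW112010 (next 604), 879 of Glipr2 (next 459), 2636 of Rps27l (next 1481) and 1758 of Txndc17 (next 761).

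Low pool 3 of control mouse 1, with 2 counts of Fscn1 and 0 of Ccr7, stood above the other low pools in 6 genes, of which Ccl22, Serpinb6b and Marcksl1 are in the maturation list. It held 302 CPM of Ccl22 (next 0), 235 of Serpinb6b (next 16.8), 134 of Glipr2 (next 40.3), 101 of Marcksl1 (next 0), 33.6 of Ptafr (next 0) and 33.6 of Ccl5 (next 10.1).

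Other low pools stood apart in single genes. Pool 1 of control mouse 3 had 35.9 CPM of Il12b (next 0), 108 of Tcf4 (next 47.4) and, at the lower end, 0 of Cd86 (next 131). Pool 2 of PGE2-deficient mouse 4 had 370.3 CPM of Tiam1 (next 114) and 16.8 of Scin (next 0). Pool 3 of PGE2-deficient mouse 3 had 10.1 CPM of Cxcl9, pool 2 of control mouse 2 had 76.0 of Cd63 (next 0 for both), and pool 2 of control mouse 1 had 47.4 of Pfkfb3 (next 20.2).

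Among high pools of control tumours, pool 3 of mouse 3 had 178 CPM of Mreg (next 33.8) and 66.8 of Birc5 (next 0), pool 3 of mouse 2 had 2526 of Bcl2a1b (next 895) and pool 1 of mouse 4 had 540.2 of Nr4a3 (next 365). Among those of PGE2-deficient tumours, pool 1 of mouse 1 had 322 CPM of Mreg (next 153), 263 of Mmp25 (next 104) and 322 of Arhgap31 (next 156). Pool 2 of mouse 1 had 199 CPM of Birc5 (next 87.8) and pool 3 of mouse 1 had 362 of Bhlhe40 (next 192). Pool 1 of mouse 4 had 115 CPM of Ptafr (next 57.3) and pool 3 of mouse 4 had 234 of Scin (next 117).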

How the results depend on the processing

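Every call of the main comparison that could be tested kept its direction under every alternative, except 1 of 40 (Cxcl9, at a fitted difference of 0) without all libraries holding pDC, T cell or C1q markers. The alternatives reuse pools in which these genes were called, and no such share is given over all tested genes. Kept directions are thus a description only. The number of calls depended on the setting. Against 43 higher and 1 lower gene, filterByExpr (836 genes tested) gave 19 and 0, the mouse as replicate block 22 and 0, class by Ccr7 alone 25 and 0, class by Fscn1 alone 19 and 1, control pools alone 10 and 0, and PGE2-deficient pools alone 5 and 0. Lower genes numbered 3 with a filter of 15 counts, with limma-voom and the mouse as random effect, and with pools of a mouse and class summed. They numbered 0 with a filter of 100 counts and with the library total as covariate. Leaving out 1 mouse gave 19 to 46 higher and 0 to 2 lower genes. The fewest higher were 19 without control mouse 3, 27 without PGE2-deficient mouse 4 and 28 without control mouse 2, each of which leaves 0 lower; 2 were lower without PGE2-deficient mouse 1. Without libraries holding pDC markers 21 were higher and 1 lower, without T cell markers 11 and 0, and without C1q markers 42 and 0. The first of these fits left 1 control high pool, and the second left no low pool of PGE2-deficient tumours. Without any such markers the class difference rested on 1 control high pool, and calls of that fit are not given. All of these fits were chosen after seeing the data. A planned fit without all libraries holding macrophage markers such as Lyz2 as well was not possible, as it left 3 high and 0 low pools. The other settings gave 29 to 63 higher genes, and the interaction test gave 0 genes in each of its 4 settings. For the 69 named genes, 387 of 2040 alternative values lost the call, 44 gained it and 35 changed sign; the cause was not tested.

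Sign changes were in genes that were not called. Irf8 became 0.025 with limma-voom, 0.20 in PGE2-deficient pools, 0.0087 without pDC markers and ran from −0.27 to 0.022 without single mice (0.014 and 0.022 without control mouse 4 or 3). Batf3 became 0.0061 with 100 counts, 0.041 with the continuous sum, 0.14 by Fscn1 alone, 0.16 in PGE2-deficient pools, 0.19 without C1q markers and ran from −0.17 to 0.16 without single mice (0.015, 0.16 and 0.030 without control mouse 4 or 2 or PGE2-deficient mouse 3). Itgae became 0.41 in control pools, 0.97 without T cell markers, 0.37 without any such markers and ran from −0.31 to 0.32 without single mice (0.011 and 0.32 without control mouse 1 or PGE2-deficient mouse 4). Il1b became −0.049 with upper quartile factors, −0.30 under the block, −0.041 with limma-voom, −0.020 with summed pools, −0.19 with a sum of 10 or more, −0.24 by Ccr7 alone, −0.31 in PGE2-deficient pools, −0.24 without pDC markers, −0.45 without any such markers and ran from −0.14 to 0.15 without single mice (between them −0.020, −0.013, −0.0087 and −0.00088). Cd74 became 0.0088 by Fscn1 alone and 0.0015 without C1q markers, and Ccl22 −1.28 without any such markers. All values without any such markers rested on 1 control high pool.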
